A study of Mus musculus with 8 samples.

Results

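The mitochondrial ribosomal protein genes of the mouse, called MRP genes here, were taken as the protein-coding genes of GENCODE M21 (mm10, chromosomes 1 to 19) whose symbol is Mrpl or Mrps followed by a number. The rule found 78 of 20722 protein-coding genes, 49 with an Mrpl symbol (named for the large subunit) and 29 with an Mrps symbol (named for the small subunit). For each gene the body was its longest protein-coding transcript. H3K36me3, the trimethylation of lysine 36 on histone H3, was read over these bodies by ChIP–seq in i4F MEFs, which are mouse embryonic fibroblasts from embryos at E13.5 carrying a doxycycline-inducible cassette of OCT4, SOX2, KLF4 and MYC (OSKM). All cells came from 1 embryo, Clone 1 of the labels and MEF 1 of the study, and were kept for 72 h in iPSC medium. The conditions were no doxycycline (MEF), no doxycycline with 2 µM vitamin B12 (MEF B12), doxycycline (OSKM) and doxycycline with 2 µM vitamin B12 (OSKM B12). The labels give the doxycycline concentration as 1 µg/ml, where the study's methods write mg/ml, and the same inducible cassette is present in the uninduced cells. The study compared them to ask how reprogramming and B12 bear on the mark. Each condition had 1 H3K36me3 library, so nothing below could be checked against replicates and no test between conditions was possible.

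Mitochondrial ribosomes translate the few proteins encoded by mitochondrial DNA, all of them subunits of the respiratory chain and the ATP synthase. Their ribosomal RNA comes from the mitochondrial genome, whereas every one of their proteins is encoded in the nucleus, made in the cytosol and imported. Some of these proteins descend from bacterial ribosomal proteins and others were gained in mitochondria. H3K36me3 is laid down in the wake of elongating RNA polymerase II by SETD2, which uses S-adenosylmethionine, and is therefore found along the bodies of transcribed genes and away from their promoters.

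After duplicate removal, the libraries held between 29046913 and 33399267 H3K36me3 tags, and broad peaks had been called in each library against its own input. The OSKM list covered 91.8 Mb of the genome, against 150 Mb in MEF and 163 Mb in both MEF B12 and OSKM B12, with a similar number of peaks (65474 to 69434 in the 4 lists). As a check of the cell type, peaks covered at least 10% of the body of 8 of 8 fibroblast marker genes (Col1a1, Vim and others) in every library, of 0 of 4 epithelial marker genes and of 1 of 4 haematopoietic marker genes, Cd68. In a bulk sample, fewer cells carrying the mark and less mark in each cell cannot be told apart.

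A gene was called marked when peaks covered at least 10% of its body in at least 1 library. Of the 78 MRP genes, 71 (91.0%) were marked, against 46.4% of all protein-coding genes, a background that includes genes silent in fibroblasts. The share was 85.2% for 88 cytosolic ribosomal protein genes and 90.4% for 83 genes of oxidative phosphorylation subunits. Among genes under 5 kb, 21 of 27 MRP genes and 27.1% of all genes were marked. Between 5 and 20 kb, 41 of 41 MRP genes and 49.2% of all genes were marked, and above 20 kb, 9 of 10 and 52.3%. The MRP genes were short, with a median body of 7765 bases and 5 exons, against 16920 bases and 7 exons for all protein-coding genes.

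The 7 unmarked genes were of distinct kinds. Mrpl34, Mrpl36, Mrpl41, Mrpl53, Mrpl57 and Mrps34 had no peak in any library, and their bodies were between 789 and 3224 bases long. Since a peak is listed only above the caller's threshold, these genes had no enrichment detectable at this depth. Mrps28, the longest MRP gene at 121773 bases, was covered over 0.609% and 2.79% in MEF without and with B12, and 0% and 2.09% in OSKM without and with B12. At the other side of the threshold, Mrpl48 reached at most 14.8% (in OSKM B12), and the next lowest maximum was that of Mrpl14 with 19.9% (in MEF).

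**Figure D1:**
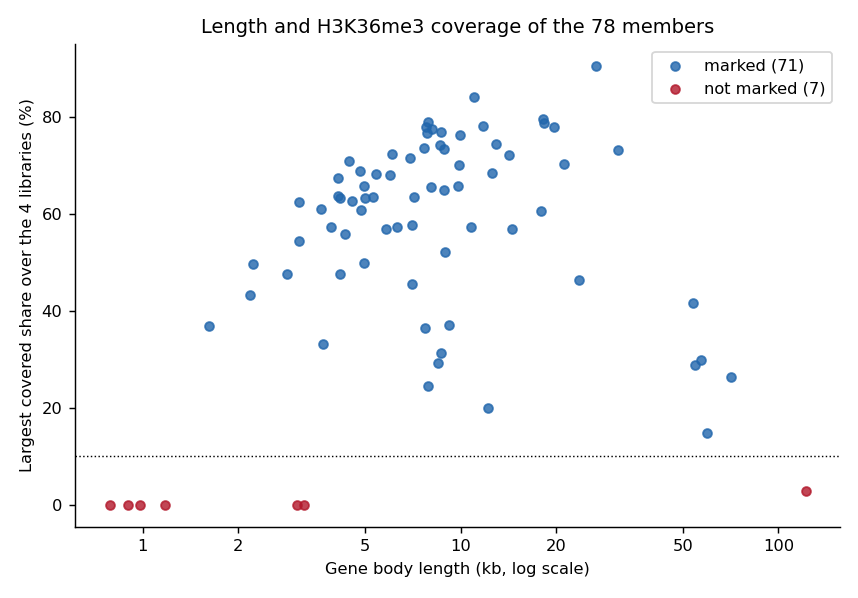
Largest share of the gene body in H3K36me3 peaks over the 4 libraries (y axis, %) against body length (x axis, kb, log scale) for the 78 MRP genes, with the threshold of 10% as a dotted line. The 6 genes without any peak lie at or below 3224 bases and Mrps28, at 121773 bases, is the only other gene under the line.

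The promoters of these genes gave a sequence view of what the peaks left out. RefSeq windows from 250 bases before to 50 bases after the start were found for 69 of the 78 genes, on GRCm38.p6, the assembly of mm10. In MEF, MEF B12 and OSKM B12, 0 of the 69 windows were touched by a peak, and in OSKM 2 were. Peaks touched between 1.15% and 1.61% of all 15663 windows matched to a protein-coding gene. Both windows touched in OSKM lie between divergent genes, with 300 bases in a peak for Mrps18b, which faces Ppp1r10, and 266 bases for Mrps27, which faces Ptcd2. A divergent coding gene starting within 1 kb was found for 21 of 78 MRP genes (26.9%), against 7.53% of all protein-coding genes, and among genes under 5 kb for 37.0% against 5.71%. Related lists also lay above all protein-coding genes. Such a divergent gene was found for 20.5% of oxidative phosphorylation genes and 21.1% of other mitoribosome and mitochondrial translation genes, and for 11.4% of cytosolic ribosomal protein genes. One such promoter serves a pair of MRP genes, Mrpl46 and Mrps11, whose starts lie 42 bases apart by RefSeq and 30 by GENCODE, and whose RefSeq windows share 141 bases.

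The windows were searched on both strands for 3 short motifs known from promoters of nuclear genes for mitochondrial proteins. GCGCANGCG (NRF1 type) was found in 16 of 69 windows (23.2%), against 9.37% of all windows and 15.8% of the windows of marked genes. CCGGAAG (ETS type) was found in 24 windows (34.8%), against 12.6% of all and 20.98% of marked genes. AAGATGGCG (YY1 type) was found in 8 windows (11.6%), against 2.04% and 3.76%. At least 1 of the 3 was found in 40 windows (58.0%), against 21.4% of all, 35.6% of marked genes, 54.8% of cytosolic ribosomal protein genes and 51.6% of oxidative phosphorylation genes. By motif, cytosolic ribosomal protein genes had 14.5% (NRF1 type), 38.7% (ETS type) and 6.45% (YY1 type). Oxidative phosphorylation genes had 29.0%, 24.2% and 9.68%, so that only the YY1 type was most frequent in MRP genes. The NRF1-type motif is close to its own reverse complement, so that 1 place can match on both strands, and a match is a run of letters and not a bound site.

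The next 6 windows are printed 5′ to 3′ on the strand of the gene, from RefSeq on GRCm38.p6, with motif matches in capitals and the first transcribed base at position 251. The first 2 show the shared promoter, the next 2 the windows that a peak touched in OSKM, and the last 2 the promoters of genes that lost all body peaks in OSKM. Their positions are chr7:78783040-78783339, minus strand for Mrpl46, chr7:78782881-78783180, plus strand for Mrps11, chr17:35916391-35916690, minus strand for Mrps18b, chr13:99344536-99344835, plus strand for Mrps27, chr7:28741772-28742071, minus strand for Mrps12 and chr14:54426659-54426958, plus strand for Mrpl52.
Mrpl46: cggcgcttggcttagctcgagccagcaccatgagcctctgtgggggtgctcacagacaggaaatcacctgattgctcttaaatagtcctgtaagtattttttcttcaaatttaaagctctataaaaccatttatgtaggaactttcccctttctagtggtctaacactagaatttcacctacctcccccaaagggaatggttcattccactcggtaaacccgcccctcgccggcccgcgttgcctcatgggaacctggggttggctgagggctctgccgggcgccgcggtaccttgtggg
Mrps11: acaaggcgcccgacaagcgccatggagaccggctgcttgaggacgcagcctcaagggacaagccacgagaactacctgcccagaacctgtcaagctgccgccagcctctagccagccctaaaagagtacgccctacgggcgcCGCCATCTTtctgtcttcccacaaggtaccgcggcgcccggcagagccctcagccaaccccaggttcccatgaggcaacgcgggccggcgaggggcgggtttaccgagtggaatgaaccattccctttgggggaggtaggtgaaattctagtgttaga
Mrps18b: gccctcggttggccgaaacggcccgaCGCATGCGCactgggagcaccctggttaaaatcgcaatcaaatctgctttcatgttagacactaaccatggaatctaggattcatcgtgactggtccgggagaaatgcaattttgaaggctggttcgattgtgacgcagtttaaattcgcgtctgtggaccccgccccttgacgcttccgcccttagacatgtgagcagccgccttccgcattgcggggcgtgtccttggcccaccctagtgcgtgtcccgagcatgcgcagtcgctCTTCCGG
Mrps27: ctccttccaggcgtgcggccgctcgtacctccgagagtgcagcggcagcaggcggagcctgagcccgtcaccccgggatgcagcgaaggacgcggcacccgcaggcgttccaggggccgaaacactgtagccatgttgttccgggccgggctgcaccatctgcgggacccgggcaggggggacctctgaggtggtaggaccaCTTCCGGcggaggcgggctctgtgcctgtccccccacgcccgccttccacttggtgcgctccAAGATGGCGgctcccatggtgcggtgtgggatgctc
Mrps12: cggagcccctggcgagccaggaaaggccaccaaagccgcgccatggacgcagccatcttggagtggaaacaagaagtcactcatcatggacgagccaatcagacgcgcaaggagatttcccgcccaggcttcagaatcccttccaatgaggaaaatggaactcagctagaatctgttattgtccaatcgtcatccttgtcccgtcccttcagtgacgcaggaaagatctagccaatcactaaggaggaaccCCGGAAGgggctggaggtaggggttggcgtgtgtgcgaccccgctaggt
Mrpl52: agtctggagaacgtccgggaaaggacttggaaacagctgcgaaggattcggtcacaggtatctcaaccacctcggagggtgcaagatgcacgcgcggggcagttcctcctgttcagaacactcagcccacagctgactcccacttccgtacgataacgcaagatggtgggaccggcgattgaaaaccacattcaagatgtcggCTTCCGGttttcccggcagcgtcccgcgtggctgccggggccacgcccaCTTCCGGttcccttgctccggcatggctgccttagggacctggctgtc

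Between the start and the first covered base lay a median of 2330 bases in MEF and 2913 in OSKM. In MEF, the first covered base fell in an intron in 58 of 72 MRP genes with a peak, in exon 1 in 0, and at the least 970 bases from the TSS. Peaks ran past the TES in 48 of these 72 genes, by a median of 1390 bases, and in 34 of 66 genes in OSKM. Neither these counts nor those of introns and exons were made for all marked genes. In Mrps11 the first covered base lay in intron 2 in all 4 libraries, at 5086 bases from the TSS in MEF, 4609 in OSKM, and 1609 and 1569 in MEF B12 and OSKM B12. In its neighbour Mrpl46 it lay at 1873, 3161, 2207 and 1828 bases in the same order, so that the shared promoter was flanked by peaks on both sides and free of them in between.

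Along the body, the mark lay towards the 3′ end. In MEF, peaks covered on average 77.4% of the 50% of the body nearer the TES and 27.2% of the 50% nearer the TSS, against 65.1% and 30.04% for all marked genes. The lean was shared with related lists, at 87.5% and 26.2% for cytosolic ribosomal protein genes and 76.2% and 24.7% for oxidative phosphorylation genes. Among genes under 5 kb these shares were 87.3% and 13.0% for MRP genes, against 63.3% and 18.8% for all marked genes of that length. Of those 1063 marked genes, 119 had no peak in MEF, which lowers their mean, against 0 of the 21 MRP genes. From 5 to 20 kb the shares were 79.9% and 32.6%, against 73.1% and 32.3%. Above 20 kb the lean was smaller in the 9 marked MRP genes, with 43.3% and 35.8%, against 59.5% and 30.8%. In OSKM the MRP genes kept the same order at lower coverage, 53.9% and 14.9%.

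**Figure D2:**
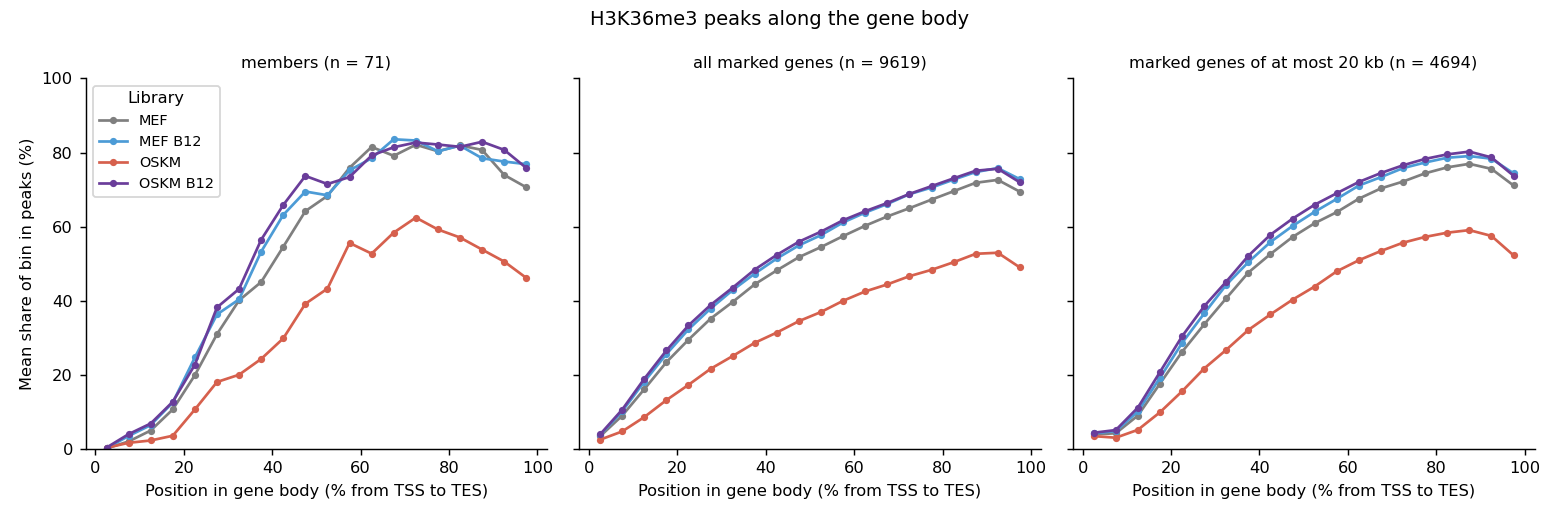
Mean share of each of 20 equal bins of the gene body in H3K36me3 peaks (y axis, %) from TSS to TES (x axis, %) in the 4 libraries, for the 71 marked MRP genes, all 9619 marked genes and the 4694 marked genes of at most 20 kb. In the MRP genes coverage in MEF rises from 0.102% in the first bin to 82.1% in bin 15 and ends at 70.6%, and the OSKM line lies below the other 3 from the second bin on.

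The level of the mark was expressed as density, the pileup (extended H3K36me3 fragments over a base) per 1000000 tags, summed over the body bases in peaks and divided by body length. A peak carries 1 mean pileup for its whole length, and bases outside peaks count as 0. Over the 71 marked MRP genes the mean density was 0.310 (MEF), 0.371 (MEF B12), 0.166 (OSKM) and 0.395 (OSKM B12), beside 0.303, 0.361, 0.166 and 0.381 for all marked genes. The mean covered share was 52.3%, 54.7%, 34.4% and 55.8%, beside 47.5%, 50.4%, 32.5% and 50.9%. By mean density the MRP genes therefore lay near all marked genes. They lay below the cytosolic ribosomal protein genes, whose mean density was 0.439, 0.508, 0.248 and 0.535 in the same order. Median densities were higher in MRP genes, at 0.321, 0.404, 0.185 and 0.418, against 0.274, 0.325, 0.135 and 0.344 for all marked genes.

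Single genes spanned a wide range of density and kept much of their order between libraries (Spearman rho between 0.84 and 0.95 over the 71 genes, as a description of values that share gene lengths and mappability). Mrpl49, a protein gained in the mitochondrial large subunit, had the highest mean density, with 0.666 (MEF) and 0.811 (MEF B12), and 0.388 (OSKM) and 0.929 (OSKM B12) when induced. Its body (chr19:6053622-6057785, minus strand) overlaps Syvn1 at the 3′ end and faces Fau at the 5′ end, and its single peak in each library, 7086 to 8132 bases long, also lay in Syvn1. Mrpl47 followed, with 0.531 and 0.637 in MEF without and with B12, and 0.336 and 0.668 in OSKM without and with B12. It encodes the relative of bacterial L29, and its body overlaps Actl6a and Ndufb5.
The next were Mrpl3, whose bacterial relative reaches towards the catalytic centre, Mrpl21 and Mrps22. Their densities in MEF, MEF B12, OSKM and OSKM B12 were 0.558, 0.655, 0.301 and 0.645 for Mrpl3, 0.440, 0.659, 0.332 and 0.633 for Mrpl21 and 0.509, 0.615, 0.309 and 0.616 for Mrps22. All 5 of these genes had their lowest value in OSKM. At the low end, Mrpl48 had 0.0430 (MEF) and 0.0530 (MEF B12), and 0.00871 (OSKM) and 0.0668 (OSKM B12) when induced, with its peaks at least 28482 bases from the start of a body of 59593 bases. Mrps27 had 0.0605 and 0.0855 in MEF without and with B12, and 0.0502 and 0.133 in OSKM without and with B12. Mrpl14, Mrpl43, Mrps27 and Mrpl23 had mean densities over the 4 libraries of at most 0.0929.

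**Figure D3:**
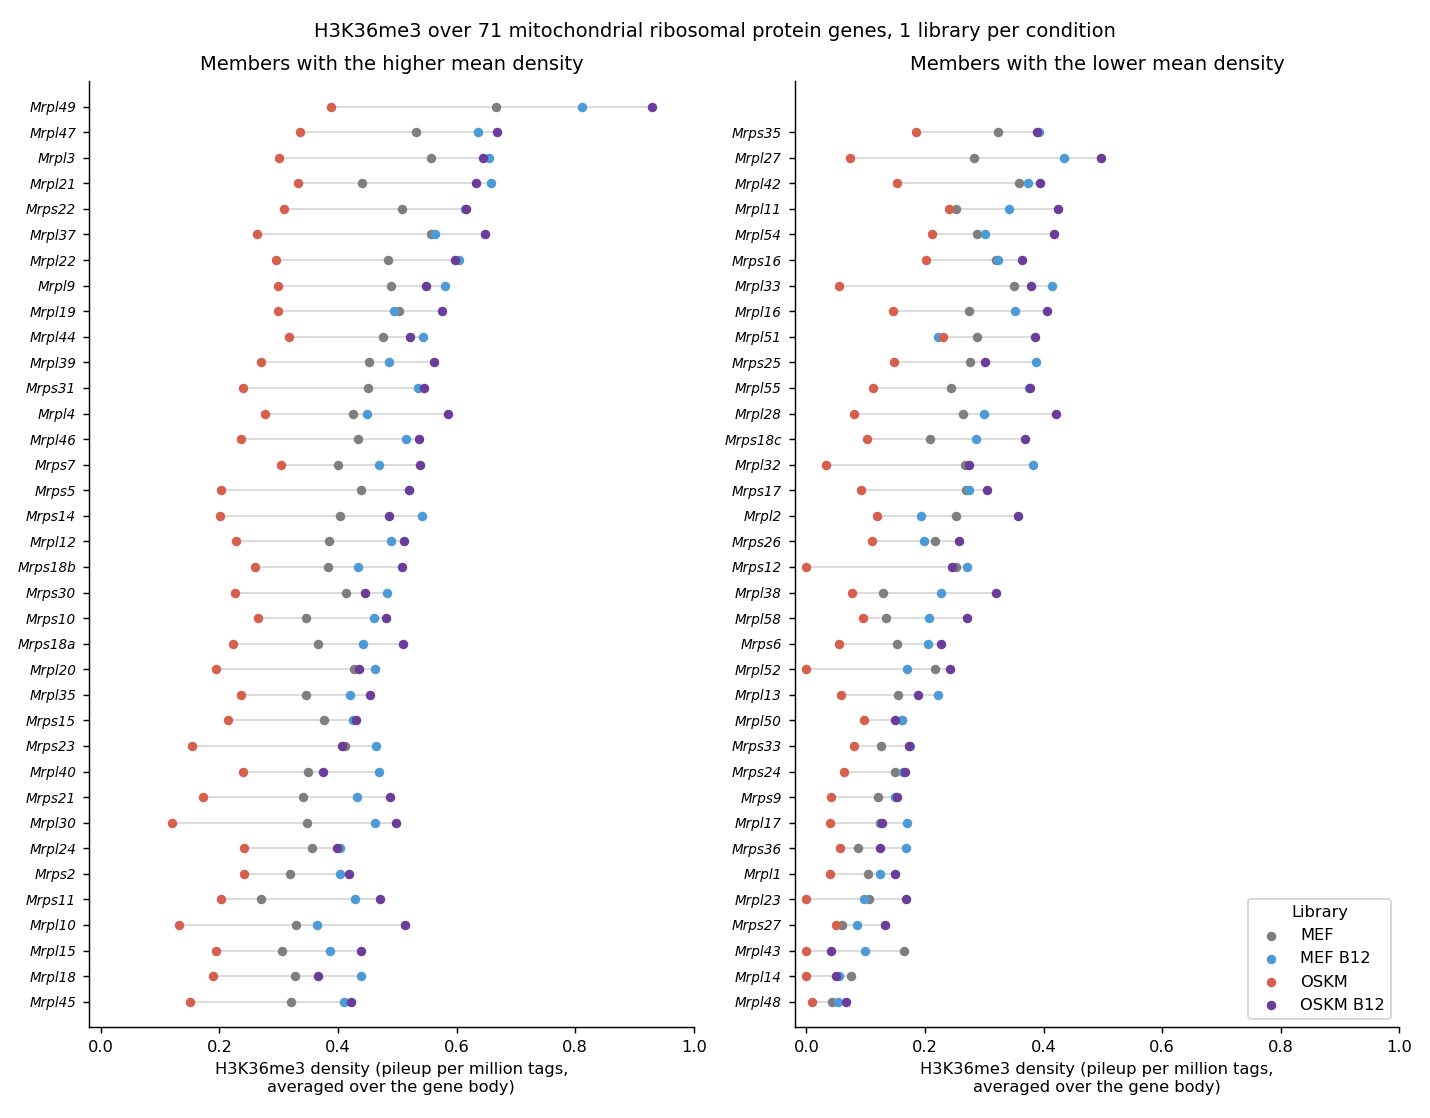
H3K36me3 density (x axis, pileup per 1000000 tags averaged over the gene body) of the 71 marked MRP genes (rows, sorted by mean density) in the 4 libraries, 1 point per library. OSKM is the leftmost point in 70 of 71 rows, and Mrpl49 reaches 0.929 in OSKM B12.

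The first comparison, OSKM against MEF, asks what doxycycline changed without added B12. Density was lower in OSKM in 71 of 71 marked MRP genes and in 96.8% of all marked genes. On the scale log2(density + 0.05), the median difference was -0.72 for MRP genes and -0.70 for all marked genes. A fall of at least 1.5-fold was seen in 49 MRP genes (69.0%), against 66.8% of all marked genes, and a rise of that size in 0, against 0.541%. OSKM was the lowest of the 4 libraries in 70 MRP genes (98.6%), against 95.9% of all marked genes. Pooled over lengths, the fall of the MRP genes was thus close to that of all marked genes. Within length classes it reached 1.5-fold in 61.9% of MRP genes under 5 kb (13 of 21), against 50.8% of all marked genes, in 68.3% from 5 to 20 kb (28 of 41), against 59.6%, and in 88.9% above 20 kb (8 of 9), against 75.5%. Under 5 kb, 119 of 1063 marked genes had no peak in MEF and could not fall, against 0 of 21 MRP genes. The OSKM to MEF ratios of mean density were 0.541 against 0.550 (under 5 kb), 0.542 against 0.580 (5 to 20 kb) and 0.475 against 0.518 (above 20 kb). The size and the count depended on the settings, with 18 genes lower by 1.5-fold at a pseudocount of 0.2 (25.4%, against 21.2% of all marked genes). With peaks of −log10 q of at least 5, 57 MRP genes were marked and the median was -2.60, against -1.83 for all marked genes. The share that fell by 1.5-fold was then 70.2% (40 genes), against 78.1%. Few bases were left in OSKM peaks at this cut, so that the pseudocount sets much of these medians. With fold enrichment the share was 60.6%, against 63.4%, and with a pseudocount of 0.01 it was 76.1%, against 79.9%. The exception in the order was Mrpl51, with 0.287 (MEF) and 0.222 (MEF B12), and 0.230 (OSKM) and 0.386 (OSKM B12) when induced, where MEF B12 was lowest.

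In OSKM, 5 of 71 marked MRP genes had no peak at all, against 5.15% of all marked genes, and all 5 had peaks in the other 3 libraries. Mrps12 encodes the relative of bacterial S12 at the decoding centre. Its density was 0.252 and 0.270 in MEF without and with B12, and 0 and 0.246 in OSKM without and with B12, and on the log2 scale it fell by 2.60 from MEF to OSKM, a number set by the pseudocount since OSKM has no peak. Its body of 2179 bases (chr7:28739642-28741820, minus strand) starts within 1 kb of Sars2, which runs the other way and is the mitochondrial seryl-tRNA synthetase gene. The peak that entered Mrps12 at its 3′ end in the 3 other libraries was 5933 to 7361 bases long and mostly lay beyond the gene, over Fbxo17.
Mrpl52, a protein gained in mitochondria, had 0.217 (MEF) and 0.170 (MEF B12), and 0 (OSKM) and 0.242 (OSKM B12) when induced, from a peak of 1581 to 1734 bases that touched no other coding gene. Mrpl43 had 0.164 and 0.0988 in MEF without and with B12, and 0 and 0.0409 in OSKM without and with B12, from the end of a peak that also lay in Sema4g. The others were Mrpl23, with 0.106 (MEF) and 0.0974 (MEF B12), and 0 (OSKM) and 0.168 (OSKM B12) when induced, and Mrpl14, with 0.0750 and 0.0542 in MEF without and with B12, and 0 and 0.0504 in OSKM without and with B12. Mrpl23 encodes a protein at the rim of the exit tunnel. The median log2 difference over the 66 MRP genes with a peak in both libraries was -0.68, beside -0.70 for all such genes.

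Among genes that kept peaks, the largest falls were in Mrpl32 and Mrpl33, relatives of the small bacterial proteins L32 and L33. Mrpl32 had 0.267 (MEF) and 0.382 (MEF B12), and 0.0327 (OSKM) and 0.275 (OSKM B12) when induced. Its OSKM to MEF ratio was 0.122 (0.0757 to 0.197), where the parentheses give, here and below, a 95% counting range that covers counting error of the fragments only. Mrpl33 had 0.350 and 0.413 in MEF without and with B12, and 0.0556 and 0.378 in OSKM without and with B12, a ratio of 0.159 (0.1199 to 0.211).
In Mrpl33 the covered share was 59.9% (MEF) and 76.9% (MEF B12), and 11.8% (OSKM) and 66.9% (OSKM B12) when induced. Its peaks numbered 4 in MEF (737 to 2713 bases long), 1 in MEF B12 (8028 bases), 4 in OSKM (288 to 398 bases) and 3 in OSKM B12 (292 to 4920 bases), so that the number was the same in MEF and OSKM and the length differed. At the other end, Mrpl11, in the factor-binding region of the large subunit, had 0.252 and 0.341 in MEF without and with B12, and 0.241 and 0.425 in OSKM without and with B12, and the range of its OSKM to MEF ratio of 0.956 (0.754 to 1.21) includes 1. The next smallest log2 differences were -0.14 in Mrps27, -0.27 in Mrpl51, -0.33 in Mrps10 and -0.34 in Mrps2. Densities in MEF, MEF B12, OSKM and OSKM B12 were 0.347, 0.461, 0.266 and 0.482 in Mrps10 and 0.319, 0.404, 0.241 and 0.419 in Mrps2.

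**Figure D4:**
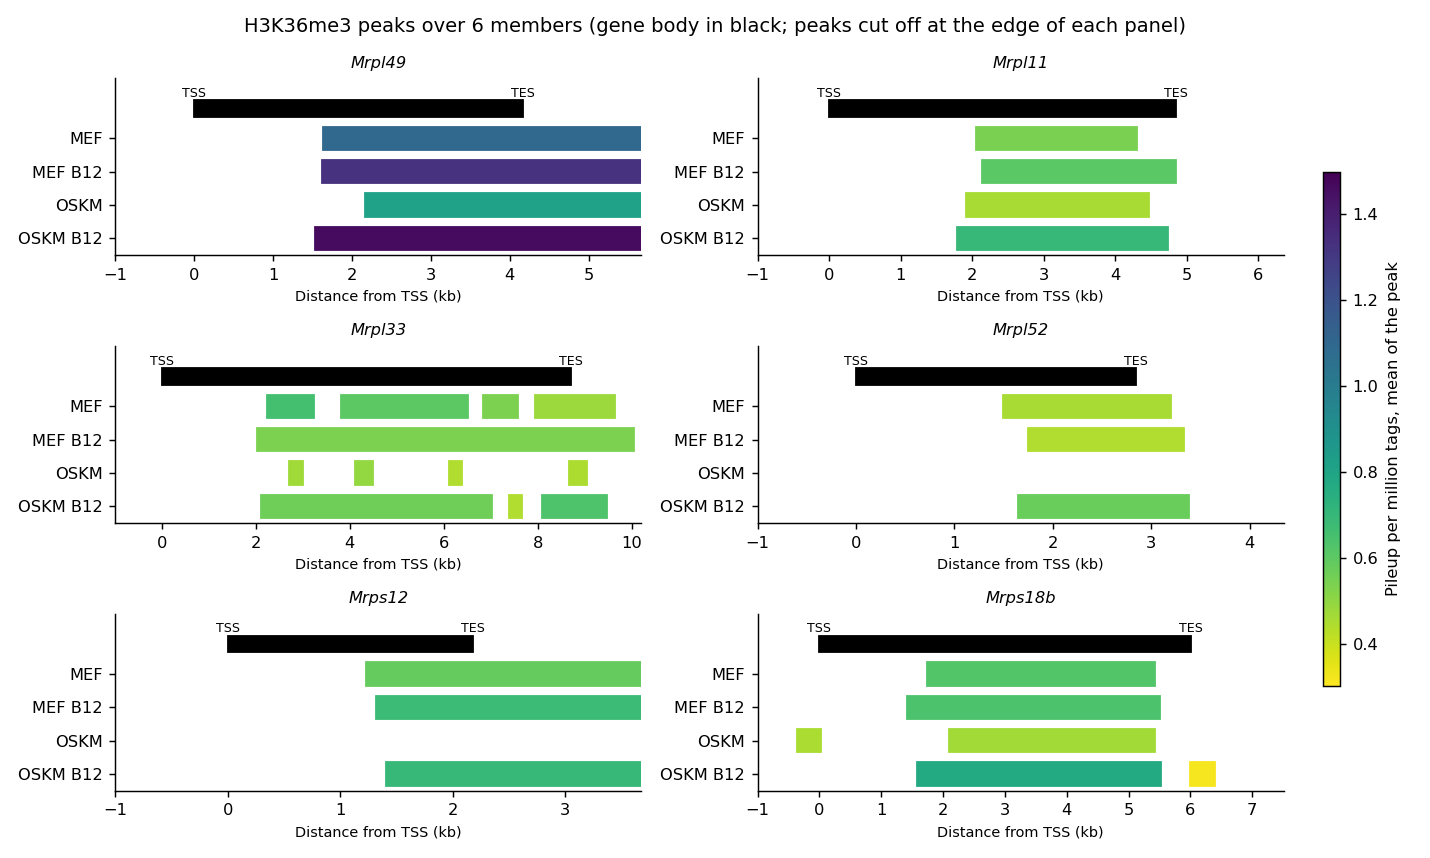
H3K36me3 peaks over 6 MRP genes by distance from the TSS (x axis, kb), 1 row per library, with the gene body in black and the mean pileup per 1000000 tags of each peak as colour. Mrps12 and Mrpl52 have no peak in OSKM, Mrpl33 has 4 peaks in both MEF and OSKM, those in OSKM being shorter, 1 in MEF B12 and 3 in OSKM B12, and Mrps18b has a peak at its TSS in OSKM.

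The second comparison, OSKM B12 against OSKM, asks what B12 changed in induced cells. Density was higher with B12 in 71 of 71 MRP genes and 98.8% of all marked genes, with a median log2 difference of 0.99 beside 0.98. A rise of at least 1.5-fold was seen in 69 MRP genes (97.2%), against 93.5% of all marked genes, and a fall of that size in 0, against 0.229%. With a pseudocount of 0.2 the rise passed 1.5-fold in 45 genes (63.4%, against 62.0% of all marked genes). With peaks of −log10 q of at least 5 the median was 3.18, against 2.49, in large part set by the pseudocount. The share that rose by 1.5-fold was then 93.0% (53 genes), against 95.6%. The genes short of 1.5-fold were Mrpl50 and Mrpl40, with log2 differences of 0.43 and 0.55. Mrpl50 had 0.161 (MEF) and 0.161 (MEF B12), and 0.0978 (OSKM) and 0.149 (OSKM B12) when induced. Mrpl40 had 0.350 and 0.469 in MEF without and with B12, and 0.239 and 0.375 in OSKM without and with B12. Next lowest were Mrpl24 with 0.62, Mrpl44 with 0.64 and Mrpl51 with 0.64.

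Among the 5 largest rises, 4 were in genes that had no peak in OSKM or had fallen most, while Mrpl43, which also had none, rose by 0.86. Mrps12 and Mrpl52 rose by 2.57 and 2.55 on the log2 scale, and Mrpl23 by 2.12, each from no peak in OSKM, so that the pseudocount sets these sizes. Mrpl27, the relative of a bacterial protein next to the peptidyl transferase centre, had 0.282 (MEF) and 0.434 (MEF B12), and 0.0741 (OSKM) and 0.497 (OSKM B12) when induced, a ratio of 6.70 (5.03 to 8.94). In MEF B12 and OSKM B12 its peak was 14483 and 14837 bases long and ran into Xylt2, and in OSKM a peak of 10760 bases over Xylt2 touched its edge. Mrpl33 rose to a ratio of 6.80 (5.12 to 9.02). Because OSKM enters both this and the first comparison, a low value in OSKM alone gives a fall in one and a rise in the other.

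In uninduced cells, MEF B12 against MEF, differences were small. Density was higher with B12 in 62 MRP genes (87.3%, against 90.5% of all marked genes) and lower in 9 (12.7%, against 8.86%), and the median log2 difference was 0.22 beside 0.21 for all marked genes. Within length classes the share that was lower did not exceed that of all marked genes by more than a little. It was 23.8% of MRP genes under 5 kb, against 23.7% of all marked genes. From 5 to 20 kb it was 9.76%, against 10.4%, and above 20 kb 0%, against 4.51%. A rise of at least 1.5-fold was seen in 2 MRP genes (2.82%), against 4.65% of all marked genes, and a fall of that size in 0, against 0.946%. With peaks of −log10 q of at least 5 there were 16 rises (28.1%, against 22.1% of all marked genes) and 2 falls (3.51%, against 2.80%). Without division by tags the median was 0.075, against 0.072 for all marked genes, with 0 rises (against 3.09%) and 1 fall (against 1.25%). At a pseudocount of 0.2 there were 0 rises (against 0.780%) and 0 falls (against 0.135%). The 2 genes that rose with all peaks were Mrps36, with 0.0876 and 0.168 in MEF without and with B12, and 0.0569 and 0.124 in OSKM without and with B12 and a ratio of 1.92 (1.47 to 2.504), and Mrpl38, with 0.129 (MEF) and 0.227 (MEF B12), and 0.0775 (OSKM) and 0.320 (OSKM B12) when induced and a ratio of 1.75 (1.37 to 2.24). The product of Mrps36, despite its name, is known as a subunit of the 2-oxoglutarate dehydrogenase complex. Mrps11, of the platform of the small subunit, followed with 0.270 and 0.429 in MEF without and with B12, and 0.202 and 0.471 in OSKM without and with B12, a log2 difference of 0.58. Mrpl2, near the catalytic centre, had 0.253 (MEF) and 0.194 (MEF B12), and 0.119 (OSKM) and 0.357 (OSKM B12) when induced, and the lowest values were -0.53 in Mrpl43, -0.31 in Mrpl2 and -0.31 in Mrpl51.

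Set against MEF, OSKM B12 was higher in 66 MRP genes (93.0%, against 90.9% of all marked genes) and lower in 5, with a median log2 difference of 0.29 beside 0.26 for all marked genes. It was higher by at least 1.5-fold in 7 MRP genes (9.86%), against 8.76% of all marked genes, and by other settings in 20 (peaks of −log10 q of at least 5, 35.1% against 28.9%), 4 (no division by tags, 5.63% against 5.81%), 11 (pseudocount 0.01, 15.5% against 14.4%) or 1 (pseudocount 0.2, 1.41% against 1.51%). The 7 genes were Mrpl11, Mrpl27, Mrpl38, Mrpl58, Mrps11, Mrps18c and Mrps27. The greatest of the ratios was Mrpl38, at 2.48 (1.96 to 3.13). It was lower by that much in 1, Mrpl43, against 0.998%, with a ratio of 0.249 (0.108 to 0.576). The order OSKM, MEF, MEF B12, OSKM B12 from lowest to highest was found in 40 MRP genes (56.3%), beside 53.2% of all marked genes, and the order with the last 2 exchanged in 20 (28.2%, beside 29.2%).

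**Figure D5:**
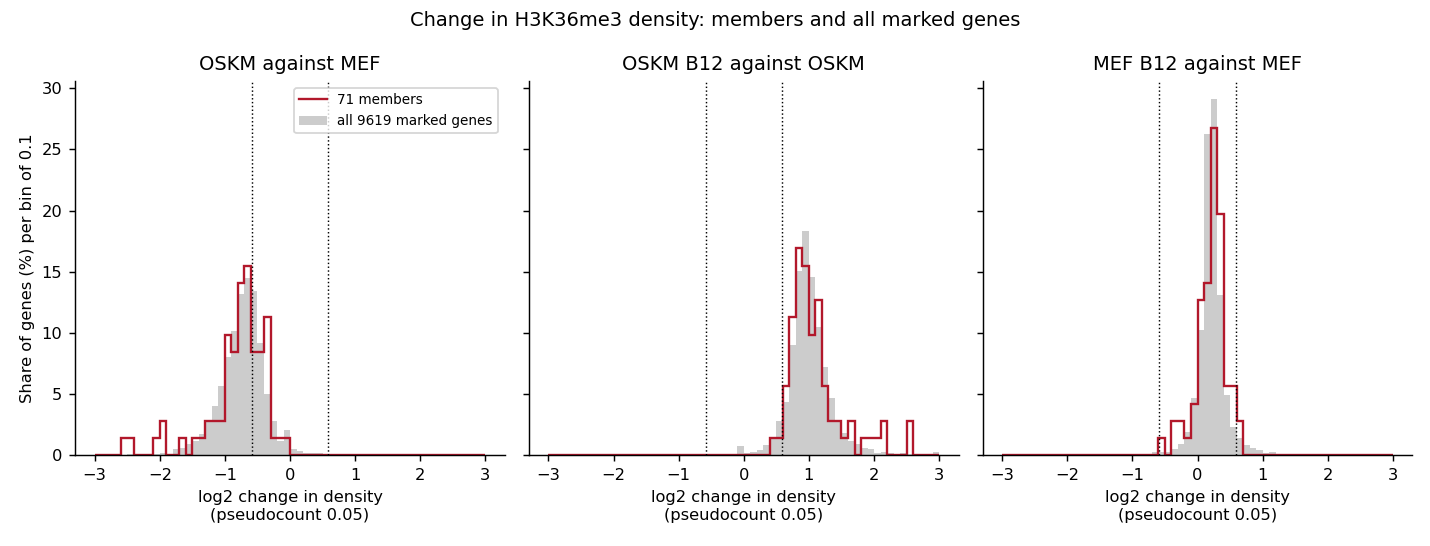
Share of genes (y axis, %) in bins of 0.1 of the log2 change in density (x axis) for the 71 marked MRP genes (red line) and all 9619 marked genes (grey), in 3 comparisons that share libraries, with 1.5-fold marked by dotted lines. The medians of MRP genes and all marked genes are -0.72 and -0.70, 0.99 and 0.98, and 0.22 and 0.21 from left to right.

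Coverage and pileup both entered these differences. On the 226058 body bases that lay in peaks in all 4 libraries, in 66 MRP genes, the scaled pileup was 0.613 and 0.699 in uninduced cells without and with B12, and 0.482 and 0.730 in induced ones. The ratio of OSKM to MEF was 0.787 (0.769 to 0.806), beside 0.754 over all shared autosomal bases. For OSKM B12 over OSKM it was 1.51 (1.48 to 1.55), beside 1.57, and for MEF B12 over MEF 1.14 (1.12 to 1.17), beside 1.14. By gene, the OSKM to MEF ratio was below 1 in 64 of 66, with Mrpl38 at 1.19 and Mrps26 at 1.06 as the exceptions. These 2 values rest on 928 and 981 bases and have no counting range. By whole-body density both genes were lower in OSKM than in MEF. Only bases that were also called in OSKM enter here, each with the mean pileup of its whole peak. With B12, induced cells were above those without it in 66 of 66. Counts by gene on shared bases were not made for all marked genes. By whole-body density, 96.8% of all marked genes were lower in OSKM than in MEF, and 98.8% were higher in OSKM B12 than in OSKM. Peaks that touched an MRP gene had a median length of 1759, 1638, 989 and 1873.5 bases in MEF, MEF B12, OSKM and OSKM B12, and numbered 180, 184, 194 and 184.

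By role in the ribosome, the proteins of the stalk that recruits translation factors were Mrpl10 and Mrpl12. Mrpl10 had 0.330 and 0.364 in MEF without and with B12, and 0.132 and 0.513 in OSKM without and with B12, with an OSKM to MEF ratio of 0.399 (0.322 to 0.495). Mrpl12 had 0.384 (MEF) and 0.489 (MEF B12), and 0.228 (OSKM) and 0.512 (OSKM B12) when induced, with a ratio of 0.593 (0.471 to 0.746). With Mrpl11 above, the 3 genes of this region thus ranged from a density ratio of 0.399 to one of 0.956. On the bases in peaks in all 4 libraries their order differed, with OSKM to MEF ratios of 0.681 in Mrpl10, 0.842 in Mrpl11 and 0.932 in Mrpl12.
Around the exit of the nascent chain, Mrpl22 had 0.484 and 0.604 in MEF without and with B12, and 0.295 and 0.598 in OSKM without and with B12, and Mrpl24 had 0.356 (MEF) and 0.404 (MEF B12), and 0.242 (OSKM) and 0.399 (OSKM B12) when induced. Mrpl45, whose protein ties the exit to the inner membrane, had 0.321 and 0.410 in MEF without and with B12, and 0.1497 and 0.421 in OSKM without and with B12. OSKM was the lowest library in these 3 as well. Mrpl58, a peptidyl-tRNA hydrolase that became a ribosomal protein, had 0.134 (MEF) and 0.206 (MEF B12), and 0.0949 (OSKM) and 0.270 (OSKM B12) when induced, with a ratio of OSKM B12 to MEF of 2.02 (1.64 to 2.496). Mrpl44, which has a ribonuclease III-like fold, had 0.476 and 0.544 in MEF without and with B12, and 0.318 and 0.522 in OSKM without and with B12, and its OSKM to MEF ratio was 0.667 (0.557 to 0.798). Mrps7, of the head of the small subunit, had 0.401 (MEF) and 0.470 (MEF B12), and 0.303 (OSKM) and 0.539 (OSKM B12) when induced, and its ratio was 0.757 (0.609 to 0.942).

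Of the 3 paralogues of bacterial S18, Mrps18c had the lowest density in every library. Mrps18a had 0.367 and 0.443 in MEF without and with B12, and 0.222 and 0.510 in OSKM without and with B12. Mrps18b had 0.383 (MEF) and 0.435 (MEF B12), and 0.260 (OSKM) and 0.508 (OSKM B12) when induced. Mrps18c had 0.209 and 0.286 in MEF without and with B12, and 0.103 and 0.369 in OSKM without and with B12.
The OSKM to MEF ratios of the paralogues were 0.607 (0.540 to 0.681) in Mrps18a, 0.680 (0.562 to 0.822) in Mrps18b and 0.491 (0.368 to 0.656) in Mrps18c, and these ranges overlap. Mrps18b had a peak of 385 bases at its TSS in OSKM alone, shared with Ppp1r10. In ribosome structures the products of Mrps18a and of Mrps30 sit in the large subunit despite their names. Mrps30 had 0.414 (MEF) and 0.483 (MEF B12), and 0.227 (OSKM) and 0.446 (OSKM B12) when induced.

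Symbols and origins were compared by their medians only. The split by symbol left Mrps18a, Mrps30 and Mrps36 among the Mrps genes. The median log2 difference of OSKM and MEF was -0.72 for both the 44 marked Mrpl and the 27 marked Mrps genes, and that of OSKM B12 and OSKM was 1.00 and 0.92. For the 44 genes of bacterial type it was -0.78 and 1.01, and for the 27 specific to mitochondria -0.67 and 0.93. Marked shares were 95.7% of 46 and 84.4% of 32 genes. The 18 marked genes with a divergent coding promoter had -0.73 and 1.04, and the other 53 had -0.72 and 0.99.

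Neighbours share some of these peaks. In MEF, 16.1% of the 180 peaks that touched an MRP gene also touched another coding gene, and in 10 of 72 MRP genes every peak did. Peak sharing was not counted over all marked genes. Bodies of 15 MRP genes (19.2%) overlapped another coding body, against 17.2% of all protein-coding genes. The mark has no strand, so that in Mrpl49, Mrps12, Mrpl43 and Mrpl27 the share of either gene in a common peak was not tested.

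Other genes of the same pathway were compared with all marked genes in the same way. Of 38 further genes for mitoribosome proteins with other names, translation factors, assembly factors and mitochondrial transcription, 37 were marked. OSKM was lower than MEF by at least 1.5-fold in 28 (75.7%, against 66.8% of all marked genes) and higher by that much in 0, with a median log2 difference of -0.75, against -0.70. The lists differed, and the 28 were 13 of 13 translation factors, 11 of 16 marked assembly factors, 4 of 5 mitoribosome proteins with other names and 0 of 3 mitochondrial transcription genes. OSKM B12 was higher than OSKM by at least 1.5-fold in 36 (97.3%, against 93.5%), with a median of 1.06, against 0.98. Tufm, the elongation factor Tu of mitochondria, had 0.683 and 0.843 in MEF without and with B12, and 0.366 and 0.796 in OSKM without and with B12. Tfam, which packages and helps transcribe mitochondrial DNA, had 0.413 (MEF) and 0.513 (MEF B12), and 0.282 (OSKM) and 0.484 (OSKM B12) when induced, and Polrmt, the mitochondrial RNA polymerase, had 0.765 and 0.761 in MEF without and with B12, and 0.529 and 0.929 in OSKM without and with B12. The single unmarked gene was Ddx28, of 1 exon, with no peak. For the 75 marked cytosolic ribosomal protein genes the median log2 differences were -0.71 (OSKM against MEF) and 0.91 (OSKM B12 against OSKM), and for the 75 marked oxidative phosphorylation genes -0.69 and 0.93.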

How the data were processed

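Per the file headers and the study's methods, reads had been placed on mm10 by the authors (Bowtie 0.12.9), who removed duplicates and called broad peaks with MACS2 2.2.6 on each H3K36me3 library against its own input (q cut-offs 0.05 and 0.1), without pooling libraries. The deposited pileup, a signal of extended fragments per base, the fold enrichment over input and the −log10 p-value and q-value are each 1 mean per peak. The 4 input libraries entered through the authors' peak calling only. The labels name the mark H3K36me3, except for a protocol line that reads H3K3me3.

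Here pileup was divided by the tags of its library and multiplied by 1000000, and overlaid on the longest protein-coding transcript of each GENCODE M21 gene (Python 3.11, numpy 2.4.6, pandas 2.3.3, matplotlib 3.10.9). Density changes are log2 of (density + 0.05), called at 1.5-fold. With 1 library per condition no test between conditions was run. Counting ranges come from fragments estimated from pileup and cover counting error only. Bases outside peaks have no value, so that loss below the calling threshold reads as 0. The steps were tested on simulated data.

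The MRP genes, the gene lists, the comparisons and the motifs were chosen with earlier results of these data known. Genes named with values were the 5 highest and 5 lowest by mean density and by change in both comparisons with OSKM, the 3 highest and 3 lowest in MEF B12 against MEF, those moved past 1.5-fold against the majority, and a list by role in the ribosome. Neighbouring genes and genes outside these ranks were described after their values were seen. Alternatives covered peak thresholds, scaling, pseudocount, gene body, overlaps, exon number and the definition of marked genes.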

Additional observations from a re-analysis of the deposited data

Results flagged for a closer look

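In 9 of 71 marked MRP genes (12.7%), B12 went with a lower density in uninduced cells and a higher one in induced cells, and in 8.54% of all marked genes. Since density rose with B12 in induced cells in all 71, these are the same 9 genes that were lower in MEF B12 than in MEF. They are not a separate result. Within length classes their share was close to that of all marked genes or below it, as given above. The log2 differences of MEF B12 and MEF, followed by those of OSKM B12 and OSKM, were -0.53 and 0.86 in Mrpl43, -0.31 and 1.27 in Mrpl2, -0.31 and 0.64 in Mrpl51, -0.28 and 2.55 in Mrpl52, and -0.26 and 1.01 in Mrpl14. They were -0.10 and 0.94 in Mrps26, -0.0848 and 2.12 in Mrpl23, -0.0224 and 0.84 in Mrpl19, and -0.0052 and 0.43 in Mrpl50. Mrpl43, Mrpl52, Mrpl14 and Mrpl23 had no peak in OSKM, so that the pseudocount sets their second value. With 1 library per condition the difference between induced and uninduced cells was not tested. The counting range of the MEF B12 to MEF ratio includes 1 in 8 of the 9 genes, with 0.723 (0.530 to 0.986) in Mrpl14 as the exception.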

How the results depend on the processing

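Medians of change and shared-base ratios kept their direction under every alternative run, but the calls of MEF B12 against MEF (2 higher, 0 lower) did not. With peaks of −log10 q of at least 5 only, mean covered shares were 39.1% (MEF), 49.3% (MEF B12) and 2.75% (OSKM), mean densities 0.256 (MEF) and 0.0181 (OSKM), and median log2 changes -2.60 (OSKM against MEF), 3.18 (OSKM B12 against OSKM) and 0.39 (OSKM B12 against MEF, 20 genes higher). MEF B12 against MEF then had 16 genes higher and 2 lower, and shared-base ratios were 0.825, 1.24 (MEF B12) and 1.26 (OSKM B12 to MEF). Without division by tags, the medians were 0.87 (OSKM B12 against OSKM), 0.075 (MEF B12 against MEF, 0 higher and 1 lower) and 0.16 (OSKM B12 against MEF, 4 higher), and the shared-base ratios 0.807, 1.34, 1.02 and 1.08. With fold enrichment, OSKM against MEF was -0.63 (all marked genes -0.68), and ratios were 0.835 and 1.397. MEF B12 against MEF then had 2 lower (2.82%, against 1.19% of all marked genes). A pseudocount of 0.01 gave -0.85 and 1.16 (all marked genes -0.87 and 1.20). MEF B12 against MEF then had 6 higher (8.45%, against 8.45%) and 1 lower (1.41%, against 1.54%). OSKM B12 against MEF had 11 higher (15.5%, against 14.4%). A pseudocount of 0.2 gave -0.45 (18 lower) and 0.69 (45 higher), 0 higher for MEF B12 (against 0.780%), and 0.20 (1 higher) for OSKM B12 against MEF. Marked at 50%, covered shares were 60.5%, 64.1%, 42.7% and 65.0% and densities 0.369, 0.446, 0.207 and 0.476. There was then 1 higher for MEF B12 against MEF (1.96%, against 2.05%) and 0 lower for OSKM B12 against MEF (against 0.185%). Over bases in no other body, 1 gene was lower for MEF B12 against MEF (1.43%, against 0.979%). With at least 4 exons 0 were lower for OSKM B12 against MEF (against 0.621%). The cause of these shifts was not tested. No paired analysis was possible because a condition never had a second library. Genes without a peak carry no value, 1 mean pileup stands for a whole peak, and the depth allows no statement on mark below the calling threshold.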
